A study of Mus musculus with 238 samples.

Results

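Dietary restriction was examined in the visual cortex of old female mice, the occipital region of neocortex that receives visual input. The 9 libraries were chosen as all visual cortex libraries of the diet experiment, out of 238 in the series, with 1 library per mouse. All mice were C57BL/6JN females of 19 months. The 5 restricted mice (aDR; mice 61, 62, 64, 65 and 67) were compared with 4 freely fed mice (AL, ad libitum; mice 63, 66, 68 and 69). The length and degree of the restriction, the hour of sampling and the housing of the mice are not given in the sources used here. The same mice also gave libraries of 14 other brain regions and of liver, where the restricted mice carry the label DR. A separate experiment in males of the same strain and age gave 3 visual cortex libraries after injection of young mouse plasma (YMP) and 3 after saline (PBS).

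Less food changes hormone levels, body temperature, daily rhythms and fuel use, and the brain reads each of these through its own genes. In the circadian clock, BMAL1 (gene Arntl) and CLOCK or NPAS2 bind E-boxes and switch on the genes of their own repressors, among them the Per and Cry genes and Ciart, as well as output factors such as Dbp and Tef. Adrenal glucocorticoids act through the glucocorticoid receptor (Nr3c1) and induce genes such as Fkbp5 and Tsc22d3 in many tissues. Cirbp and Rbm3 encode RNA-binding proteins that accumulate when a cell or an animal cools.

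The visual libraries held from 1.81 to 13.2 M counts (M stands for mega), and the shallowest was aDR mouse 64; the median total was 7.62 M. Between 14144 and 17313 genes had a count in each, and mitochondrial genes took 1.70% to 2.20% of counts. Upper-layer neuron markers such as Lamp5 and Rorb were on average higher in visual cortex than in any of the other tissues of the diet experiment (rank 1 of 16), though motor cortex was close (672 against 633 CPM). Deep-layer neuron markers ranked 11 of 16, and meninges and fibroblast markers ranked 3 of 16. The meninges and fibroblast sum ranged from 1390 to 3090 CPM in aDR and from 1510 to 2110 CPM in AL mice. Choroid plexus markers summed to at most 2.42 CPM (counts per M) in any library, and Otx2 was at 0 in every library, as were the ependymal genes Ccdc153 and Tmem212. None of 16 marker lists had an adjusted p under 0.05 between the diets. The exact permutation test has only 126 splits, so no list on its own could pass that threshold after adjustment, however large its shift. This outcome therefore cannot show that the marker sums were alike. The smallest p was that of the hippocampal list, which ranged from 113 to 158 CPM in aDR and from 88.8 to 115 CPM in AL mice (exact permutation test, two-sided p = 0.0317, adjusted p = 0.507). Most of that sum came from Wfs1, at 101 CPM on average. Blood markers ranged from 6.98 to 64.3 CPM in aDR and from 7.38 to 27.8 CPM in AL mice (exact permutation p = 0.349, adjusted p = 0.727). In bulk tissue, fewer cells of a type and less RNA per cell cannot be told apart.

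The first question was which genes differ in visual cortex between restricted and freely fed mice. A gene is called here when its edgeR quasi-likelihood p, adjusted by the Benjamini-Hochberg method over all genes tested, is under 0.05. Of 13359 genes tested, 27 were called, or 0.202%. Of these, 23 were higher in aDR mice (0.172% of genes tested) and 4 were lower (0.0299%). At an unadjusted p under 0.05 the directions were even, with 606 higher and 611 lower. In 26 of the 27 called genes the ranges of the aDR and AL libraries did not overlap, Smim3 being the exception. Over all genes tested, ranges did not overlap in 235 with aDR higher (1.76%) and in 197 with aDR lower (1.47%). Most rises were small: the fold change of the 23 genes ran from 1.20 to 6.76 with a median of 1.61, and only 5 reached 2-fold, namely Plin4, Ano2, Fmo2, Etnppl and Pcsk4. Of the called genes, 11 belong to the gene lists described below and 16 to none. The lists were chosen with earlier results of these data known. Counts and medians over a list therefore describe its members and give no independent support. The heat map of the called genes shows these differences mouse by mouse.

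**Figure D1:**
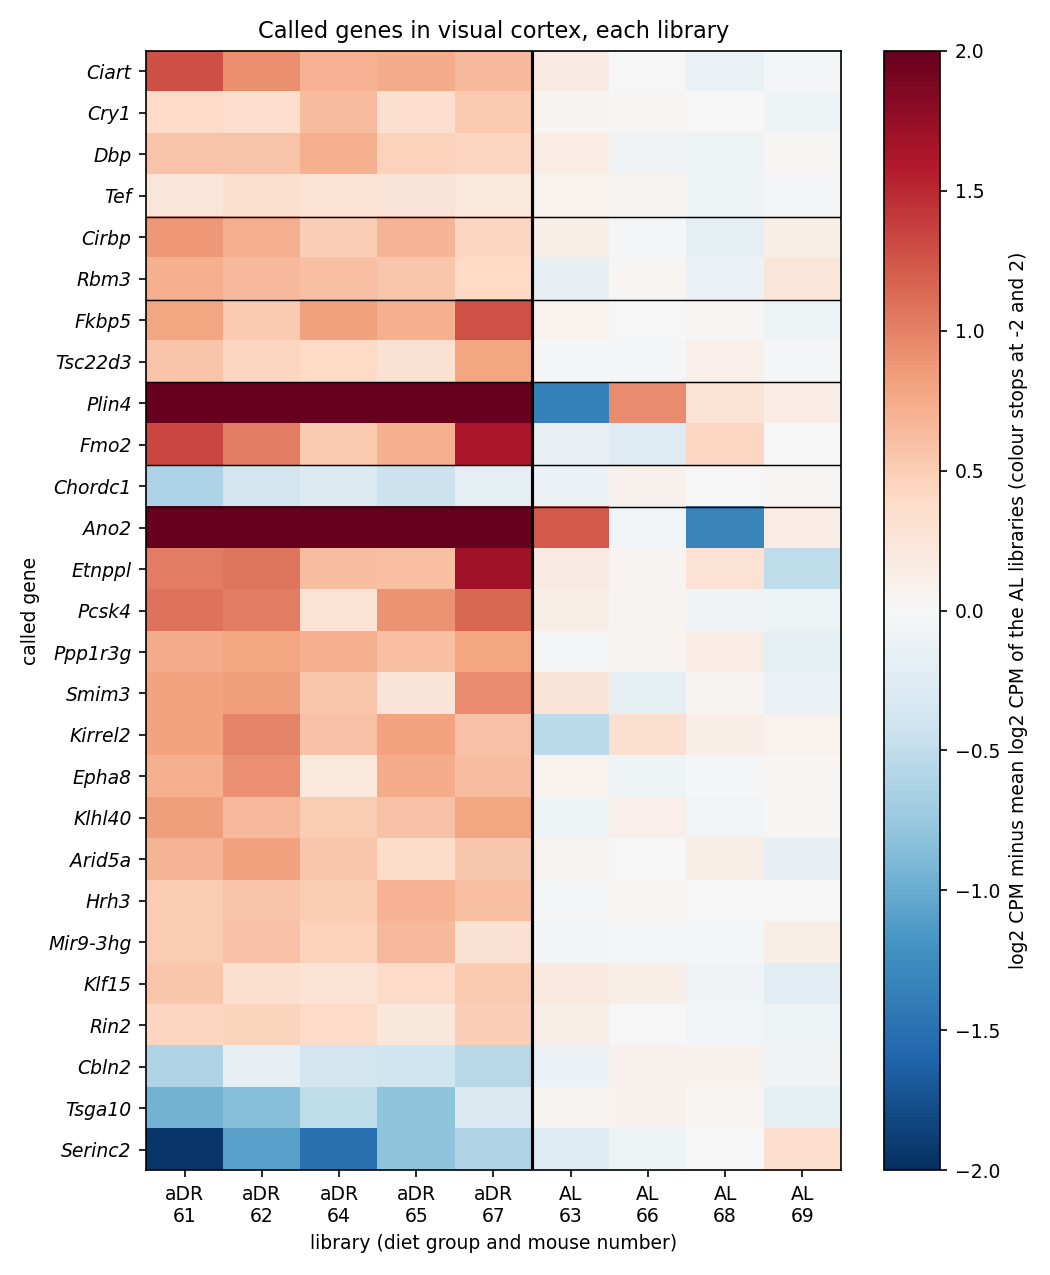
Each row is a called gene and each column a visual cortex library, 5 aDR mice left of the line and 4 AL mice right of it; colour gives log2 CPM minus the mean log2 CPM of the AL libraries, and thin lines separate clock, cold-inducible, glucocorticoid, lipid and chaperone genes from the genes in no list. The 23 genes that rose are red in all 5 aDR columns, and Plin4 and Ano2 pass the end of the colour scale.

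In the negative limb of the clock 2 genes rose, Ciart and Cry1. Of 10 circadian repressors tested, 2 were called, both higher, 5 were higher at an unadjusted p under 0.05, and the list's median log2 change was 0.16, against -0.0084 over all genes tested. Ciart, whose protein represses BMAL1 and CLOCK, had 98.8, 77.6, 66.0, 68.1 and 63.4 CPM in aDR mice 61, 62, 64, 65 and 67, in that order. In AL mice 63, 66, 68 and 69 it had 45.6, 41.0, 36.9 and 39.4 CPM. Every restricted mouse was thus above every freely fed mouse, with mouse 61 highest. The means were 74.8 ± 14.5 CPM against 40.7 ± 3.68 CPM (mean ± SD of 5 aDR and 4 AL mice), a change of 0.90 in log2 (SE 0.11, adjusted p 7.48e-04). Cry1, a light-independent repressor that binds BMAL1 and CLOCK together with PER proteins, had 67.6, 66.2, 80.8, 65.8 and 74.9 CPM in aDR and 54.2, 53.1, 51.9 and 49.3 CPM in AL mice. The groups were again separate, and Cry1 rose by 0.43 on the log2 scale (SE 0.073, adjusted p 0.00902). The period genes were not called: Per1 was at 0.25 (adjusted p 0.284) and Per2 at 0.24 (adjusted p 0.320), while Per3 was at -0.028 (adjusted p 0.951). Nr1d1, which encodes the repressor REV-ERB alpha, was at -0.033 (adjusted p 0.919).

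Among clock output genes, 2 of 7 tested were called, both higher, with a list median of 0.18. Dbp, a PAR bZIP transcription factor that carries the rhythm on to genes with D-boxes, had 156, 156, 173, 145 and 143 CPM in aDR and 117, 101, 98.4 and 107 CPM in AL mice. The ranges did not overlap, and Dbp rose by 0.53 (SE 0.069, adjusted p 7.48e-04). Tef, a factor of the same family, was at 372 ± 11.1 CPM against 310 ± 15.8 CPM (mean ± SD of 5 aDR and 4 AL mice), and its rise of 0.26 (SE 0.052, adjusted p 0.0453) was the smallest among the called genes. The Tef call was kept in only 2 of 9 fits that each left out a mouse. The third member of the family, Hlf, was at 0.18 (adjusted p 0.361). Usp2, a deubiquitinase expressed with a daily rhythm, lay just outside the threshold at 191 ± 8.30 CPM against 155 ± 12.3 CPM (mean ± SD of 5 aDR and 4 AL mice), with separate ranges (0.30, adjusted p 0.0565). Of the 5 activators tested, 0 were called and their median was -0.27. Arntl was at 48.7 ± 2.65 against 60.7 ± 5.66 CPM (SD, n = 5 and 4; log2 change -0.30, adjusted p 0.147), with no overlap between the groups. Npas2 was at -0.27 (adjusted p 0.270) and Clock at -0.27 (adjusted p 0.359), and all 3 had an unadjusted p under 0.05. Thus repressor and output genes were called only as higher, and no activator was called.

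The promoter windows of the called genes were searched for the sites these factors bind, on RefSeq windows of build GRCm38.p6 that run from 250 bases before to 50 bases after each transcript start. Windows were found for 23 of the 27 called genes. An E-box with the letters CACGTG, which reads the same on both strands, was present in 6 of the 23 (26.1%): Ciart, Cry1, Tef, Klf15, Fkbp5 and Epha8. It was present in 11.5% of the 10497 tested genes with a window and in 7.15% of all windows. The D-box TTATGTAA, searched on both strands, was in 0 of the 23 called genes and in 0.714% of the tested genes. The sequences below are printed because they carry the E-boxes of called clock genes and of Klf15, and, for Chordc1, a pair of heat shock elements; capitals mark the motif matches and no matches overlap.
Ciart, chr3:95882179-95882478, minus strand: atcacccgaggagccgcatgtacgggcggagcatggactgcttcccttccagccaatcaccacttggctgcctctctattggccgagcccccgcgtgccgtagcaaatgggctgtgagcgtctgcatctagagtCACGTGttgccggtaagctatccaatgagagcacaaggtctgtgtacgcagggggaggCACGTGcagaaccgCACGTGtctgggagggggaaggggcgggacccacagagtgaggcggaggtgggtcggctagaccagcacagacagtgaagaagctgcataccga
Cry1, chr10:85185005-85185304, minus strand: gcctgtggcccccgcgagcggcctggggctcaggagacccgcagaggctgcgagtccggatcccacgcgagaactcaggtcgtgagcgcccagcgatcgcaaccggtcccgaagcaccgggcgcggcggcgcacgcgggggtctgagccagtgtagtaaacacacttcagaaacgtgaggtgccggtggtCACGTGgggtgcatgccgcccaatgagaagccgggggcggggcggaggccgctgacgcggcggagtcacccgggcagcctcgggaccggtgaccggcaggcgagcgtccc
Tef, chr15:81802423-81802722, plus strand: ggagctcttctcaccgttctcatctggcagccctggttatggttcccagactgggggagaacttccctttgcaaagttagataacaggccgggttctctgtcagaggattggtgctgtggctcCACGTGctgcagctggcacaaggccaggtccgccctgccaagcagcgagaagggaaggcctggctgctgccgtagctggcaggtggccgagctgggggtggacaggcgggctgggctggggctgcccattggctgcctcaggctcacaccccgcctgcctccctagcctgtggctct
Klf15, chr6:90462326-90462625, plus strand: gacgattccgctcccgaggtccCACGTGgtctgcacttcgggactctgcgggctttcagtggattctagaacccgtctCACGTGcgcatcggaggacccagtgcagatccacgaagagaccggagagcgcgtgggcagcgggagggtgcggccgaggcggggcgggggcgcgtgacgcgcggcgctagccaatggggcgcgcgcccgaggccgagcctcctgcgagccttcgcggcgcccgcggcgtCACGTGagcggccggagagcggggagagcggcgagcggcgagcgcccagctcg
Chordc1, chr9:18292017-18292316, plus strand: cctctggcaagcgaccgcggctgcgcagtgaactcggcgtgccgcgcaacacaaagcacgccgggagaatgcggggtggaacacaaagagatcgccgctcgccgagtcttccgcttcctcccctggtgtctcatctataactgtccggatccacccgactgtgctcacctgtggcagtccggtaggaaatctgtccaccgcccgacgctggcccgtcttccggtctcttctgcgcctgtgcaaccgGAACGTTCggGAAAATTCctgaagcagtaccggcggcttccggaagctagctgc
In the Ciart window the E-boxes begin 116, 58 and 44 bases before the transcript start. The match in Cry1 begins 60 bases and that in Tef 127 bases before it. A further Tef window, chr15:81811164-81811463, held an E-box 138 bases before its own start. Those of Klf15 begin 228, 172 and 3 bases before the start. Dbp, which rose, had no match in its window. A match is a run of letters and says nothing of binding in these mice.

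**Figure D2:**
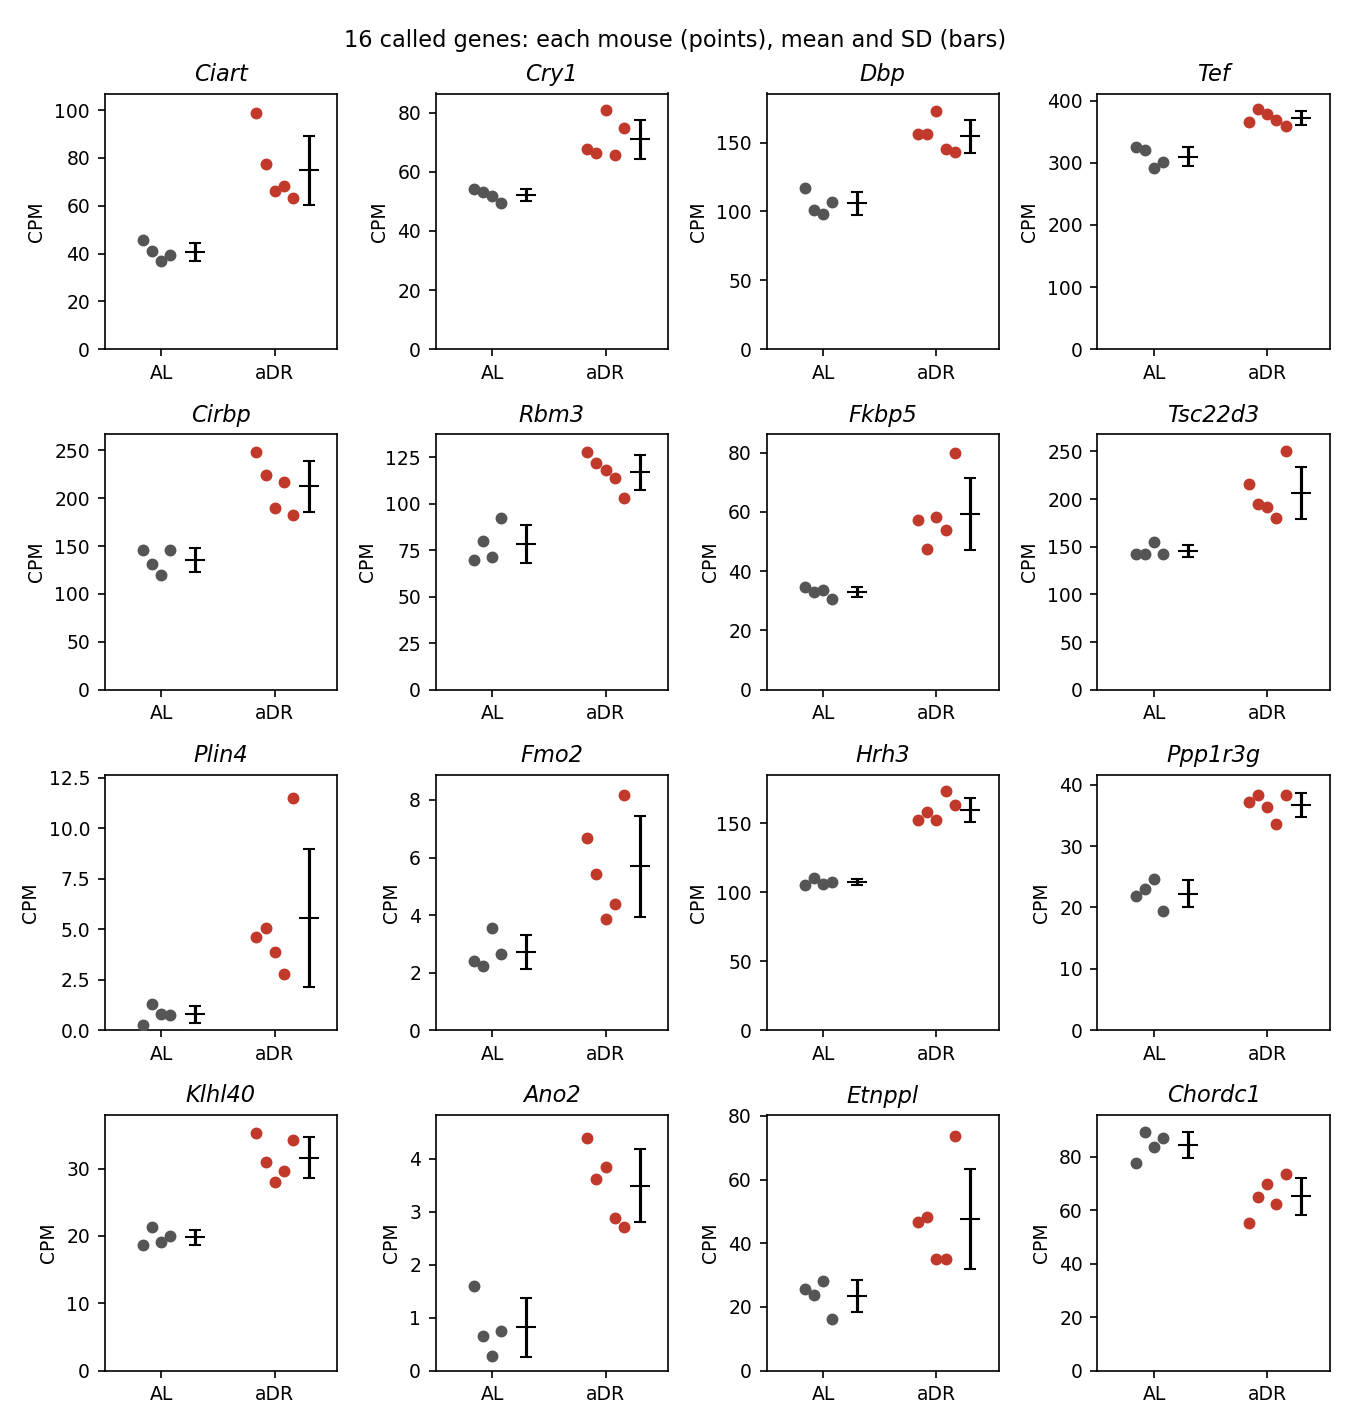
CPM of 16 called genes in each mouse; grey points are the 4 AL and red points the 5 aDR mice, and the bar beside each group gives the mean and SD. Each panel has its own axis from 0. Ranges do not overlap in any of the 16 panels, Chordc1 being the gene shown that fell.

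Both cold-inducible RNA-binding protein genes rose, the 2 that make up this list. Cirbp (chr10:80165990-80172786) had 248, 224, 190, 217 and 183 CPM in aDR and 146, 131, 120 and 146 CPM in AL mice. The lowest restricted mouse was well above the highest freely fed one, and the log2 change was 0.65 (SE 0.084, adjusted p 7.48e-04). Rbm3 (chrX:8138975-8145880) had 128, 122, 118, 114 and 103 CPM in aDR and 69.9, 80.2, 71.6 and 92.2 CPM in AL mice. Its groups were closer together but still separate, with a change of 0.55 (SE 0.083, adjusted p 0.00402). Body temperature is not given in the labels. Rbm3 shares exon sequence with Rbm3os on the opposite strand, and the counts carry no strand, so its reads cannot be told apart from those of its partner.

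Among glucocorticoid target genes, 2 rose and most others lay above 0 without passing the test. Of 21 tested, 19 had a log2 change above 0, 10 were higher and 0 lower at an unadjusted p under 0.05, and the list's median was 0.28. Fkbp5 (chr17:28398753-28486149), a co-chaperone that dampens the glucocorticoid receptor and is itself induced by it, had 57.1, 47.4, 58.3, 53.9 and 79.7 CPM in aDR and 34.7, 32.9, 33.6 and 30.5 CPM in AL mice. All restricted mice were above all freely fed mice, mouse 67 by the widest margin, and Fkbp5 rose by 0.87 (SE 0.12, adjusted p 0.00126). Tsc22d3, the leucine zipper protein GILZ, had 216, 195, 192, 180 and 250 CPM in aDR and 142, 142, 155 and 142 CPM in AL mice. Mouse 67 was again highest, and the change was 0.52 (SE 0.081, adjusted p 0.00445). Among members that were not called, Sult1a1 was at 13.9 ± 4.61 against 7.86 ± 0.525 CPM (SD, n = 5 and 4; adjusted p 0.146), with ranges that did not overlap. Gjb6, a connexin of astrocytes, was at 0.35 (adjusted p 0.132) and Sgk1, a kinase that regulates ion transport, at 0.30 (adjusted p 0.320). Other classic targets were close to 0, such as Dusp1 at 0.013 (adjusted p 0.993) and Errfi1 at 0.026 (adjusted p 0.946). The receptors and the enzyme that regenerates active steroid were not called: Nr3c1 was at -0.10 (adjusted p 0.685), Nr3c2 at -0.11 (adjusted p 0.808) and Hsd11b1 at -0.18 (adjusted p 0.741). The palindromic glucocorticoid response element was found in 0 of the 23 called genes with a window. It was in only 0.00953% of tested genes with a window, so its absence here carries no information. The half-site AGAACA, searched on both strands, was in 4 of the 23 (17.4%), against 14.8% of tested genes with a window.

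The largest change belonged to a gene of fat storage. Plin4 (chr17:56100587-56109948), which coats lipid droplets, had 4.60, 5.06, 3.85, 2.79 and 11.5 CPM in aDR and 0.267, 1.31, 0.820 and 0.754 CPM in AL mice. The 5 restricted libraries held 213 Plin4 counts in all and the 4 freely fed libraries 24, so the low level in AL mice rests on few reads. The log2 change was 2.76 (SE 0.46, adjusted p 0.00902), the largest of all genes tested. Plin4 passed the filter on low counts through the restricted libraries, where it is high, so this rank is only a description. Plin4 overlaps exons of Hdgfl2 on the opposite strand. Etnppl (chr3:130617448-130635750), an astrocyte enzyme that breaks down phosphoethanolamine, had 46.7, 48.3, 35.2, 35.0 and 73.6 CPM in aDR and 25.6, 23.8, 28.2 and 16.2 CPM in AL mice, again with mouse 67 highest. Its change was 1.15 (SE 0.19, adjusted p 0.00959). Fmo2, a flavin-containing monooxygenase of drug and sulphur compound metabolism rather than of fat use, was at 5.70 ± 1.75 CPM against 2.71 ± 0.588 CPM (mean ± SD of 5 aDR and 4 AL mice), a change of 1.19 (SE 0.23, adjusted p 0.0450). Plin4 and Fmo2 were the called members among 19 tested of the list of lipid droplet and fatty acid genes, whose median was 0.069. The other members were not called, among them Cpt1a, the enzyme that admits long-chain fatty acids to mitochondria, at 0.048 (adjusted p 0.928).

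Ppp1r3g (chr13:35958824-35970388), a subunit that targets protein phosphatase to glycogen, had 37.2, 38.3, 36.3, 33.6 and 38.4 CPM in aDR and 21.9, 23.0, 24.6 and 19.4 CPM in AL mice. With little spread in either group, the log2 change was 0.75 (SE 0.089, adjusted p 5.61e-04). Klf15, a transcription factor of amino acid and glucose metabolism that glucocorticoids induce, was at 62.7 ± 5.54 CPM against 47.3 ± 6.25 CPM (mean ± SD of 5 aDR and 4 AL mice), a rise of 0.44 (SE 0.089, adjusted p 0.0453). No gene of the insulin, IGF and FoxO list was called among 17 tested (median 0.035). Foxo1, a transcription factor held back by insulin, was at 37.8 ± 3.37 against 29.1 ± 4.16 CPM (SD, n = 5 and 4; log2 change 0.40, adjusted p 0.128). The other members with the smallest p were Sesn1 at 0.28 (adjusted p 0.242) and Irs2 at 0.20 (adjusted p 0.537).

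The gene with the smallest p of all was a receptor of neurons. Hrh3 (chr2:180099465-180104484), the histamine receptor that sits on presynaptic endings and restrains release of histamine and other transmitters, had 152, 158, 152, 173 and 163 CPM in aDR and 105, 110, 106 and 107 CPM in AL mice. The groups were far apart relative to the narrow range of the freely fed mice. The means were 160 ± 8.96 CPM against 107 ± 2.32 CPM (mean ± SD of 5 aDR and 4 AL mice), a change of 0.58 in log2 (SE 0.060, adjusted p 1.04e-04). Hrh3 shares exon sequence with Gm17180 on the opposite strand, so this value is uncertain to that extent. Ano2 (chr6:125690419-126040133), a calcium-gated chloride channel, had 4.39, 3.62, 3.85, 2.88 and 2.72 CPM in aDR and 1.60, 0.657, 0.273 and 0.754 CPM in AL mice, that is 123 counts over the restricted and 22 over the freely fed libraries. It rose by 2.10 (SE 0.32, adjusted p 0.00416). Like Plin4, Ano2 passed the filter on low counts through the restricted libraries. Epha8, an ephrin receptor kinase, rose by 0.70 (SE 0.13, adjusted p 0.0250), and Kirrel2, a cell adhesion protein of the immunoglobulin family, by 0.70 (SE 0.14, adjusted p 0.0453). Rin2, an activator of the endosomal GTPase Rab5, rose by 0.41 (SE 0.080, adjusted p 0.0450).

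Cbln2 (chr18:86711061-86718283) and Serinc2 (chr4:130253495-130279218) fell. Cbln2, a secreted protein that joins presynaptic neurexins to postsynaptic receptors, had 58.4, 79.6, 69.2, 67.4 and 60.6 CPM in aDR and 82.5, 94.5, 94.9 and 84.9 CPM in AL mice, a change of -0.42 in log2 (SE 0.084, adjusted p 0.0450). Serinc2, a member of the serine incorporator family, had 2.41, 4.34, 3.30, 5.30 and 6.09 CPM in aDR and 7.74, 8.68, 9.29 and 11.7 CPM in AL mice. Every restricted mouse was below every freely fed mouse, and the change was -1.11 (SE 0.21, adjusted p 0.0322). None of 15 genes of cortical synaptic transmission was called (median -0.029). The ones with the smallest p were Camk2a at 0.15 (adjusted p 0.511), Grin2b at -0.15 (adjusted p 0.542) and Gria2 at -0.10 (adjusted p 0.666). Immediate early genes, which report recent neuronal activity, gave 0 calls among 19 tested, with 13 below 0 and a median of -0.11. Nptx2, whose product gathers AMPA receptors at synapses, was at 21.7 ± 4.60 against 29.6 ± 2.74 CPM (SD, n = 5 and 4; -0.50, adjusted p 0.177) with no overlap, and Bdnf was at -0.29 (adjusted p 0.317).

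Several called genes are better known from other tissues. Klhl40 (chr9:121777499-121791200), a kelch protein of muscle, had 35.3, 30.9, 28.0, 29.6 and 34.3 CPM in aDR and between 18.7 and 21.3 CPM in AL mice, a rise of 0.68 (SE 0.092, adjusted p 0.00108). Its exons overlap those of Gm47108 on the opposite strand. Pcsk4, a proprotein convertase of germ cells, was at 10.2 ± 2.15 CPM against 5.44 ± 0.386 CPM (mean ± SD of 5 aDR and 4 AL mice), a 2-fold rise (SE of log2 0.15, adjusted p 0.00400). Tsga10, named from testis, fell by 0.66 on the log2 scale (SE 0.13, adjusted p 0.0453), from 21.1 ± 1.77 CPM to 13.3 ± 2.64 CPM (mean ± SD of 4 AL and 5 aDR mice). These genes were detected in every visual library, and Tsga10 overlaps exons of Gm26805 on the opposite strand. Arid5a, which binds and stabilises inflammatory transcripts, rose by 0.62 (SE 0.10, adjusted p 0.00701). Mir9-3hg, a host transcript of a microRNA of neural development, rose by 0.50 (SE 0.081, adjusted p 0.00701), which says nothing of the mature microRNA. Smim3, a small membrane protein gene, rose by 0.74 (SE 0.15, adjusted p 0.0453), with 12.5 CPM both in its lowest restricted and its highest freely fed mouse. Overlapping exons on the opposite strand also touch Dbp (Sphk2) and Tef (Gm17597). Sphk2 averaged 66.7 CPM in aDR and 53.5 CPM in AL mice, the same direction as Dbp. It was not called (adjusted p 0.0778), but was called in edgeR without the filter on low counts (0.31, adjusted p 0.0468). Its part in the Dbp value was not tested.

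Among cytosolic chaperones 1 gene fell, and most others lay below 0 without passing the test. Of 13 tested, 11 had a log2 change below 0, 4 were lower at an unadjusted p under 0.05 and 1 was called. Chordc1 (chr9:18292267-18314000), a co-chaperone of HSP90 that is induced by heat, had 55.1, 64.9, 69.8, 62.4 and 73.3 CPM in aDR and 77.7, 89.1, 83.4 and 86.9 CPM in AL mice. It fell by 0.39 on the log2 scale (SE 0.079, adjusted p 0.0453). The Chordc1 call was kept in only 2 of 9 fits that each left out a mouse. Hsph1, a large chaperone that works with HSP70, was at 311 ± 13.0 against 377 ± 31.2 CPM (SD, n = 5 and 4; -0.27, adjusted p 0.0718) with no overlap. Hspa8, the constitutive HSP70, was at -0.14 (adjusted p 0.447). The list's median was -0.10. In the Chordc1 window printed above, a heat shock element (letters GAANNTTC, the same on both strands) begins 4 bases before the transcript start and another 6 bases after it, and 7.05% of tested genes hold this motif. Chaperones of the endoplasmic reticulum gave 0 calls among 11 (median -0.045), with Hsp90b1 at -0.16 (adjusted p 0.333), Calr at -0.16 (adjusted p 0.351) and Pdia6 at -0.16 (adjusted p 0.403).

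**Figure D3:**
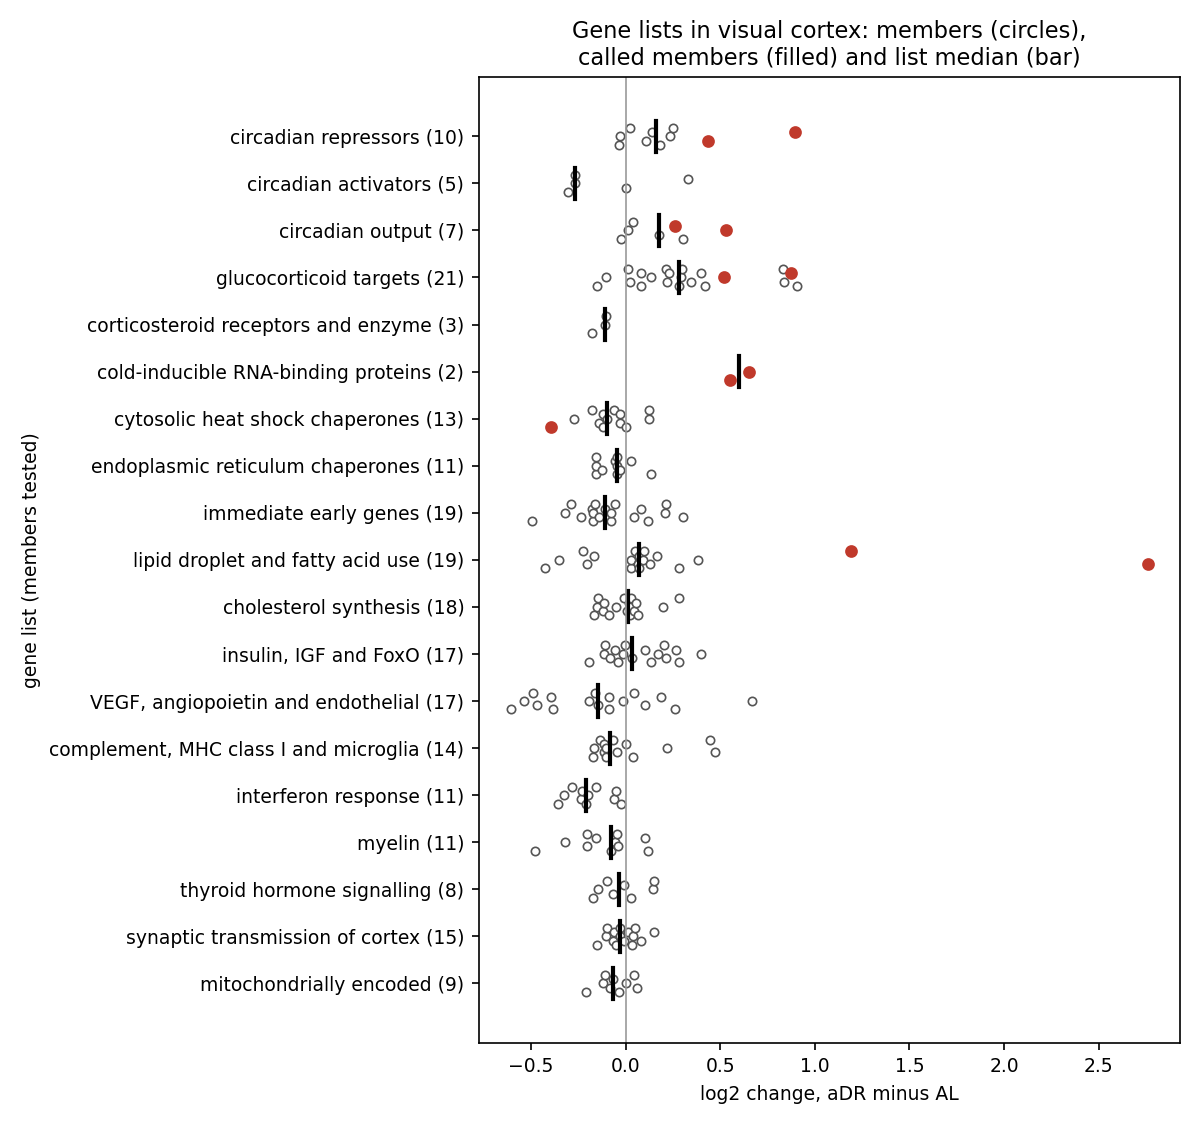
Log2 change (aDR minus AL) of every tested member of the 19 gene lists; open circles are members that were not called, filled circles called members, and black bars list medians. Filled circles lie right of 0 in the clock, glucocorticoid, cold-inducible and lipid lists, and Chordc1 is the filled circle left of 0.

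The remaining lists gave 0 calls. In the list of VEGF, angiopoietin and endothelial genes (17 tested, median -0.15), 12 members were below 0. The tight junction gene Cldn5 was at -0.61 (adjusted p 0.146), whereas Mfsd2a, the lipid transporter of brain endothelium, was at 16.2 ± 3.60 against 10.6 ± 1.0 CPM (SD, n = 5 and 4; 0.67, adjusted p 0.0718) with no overlap. The glucose transporter gene Slc2a1 was at 0.26 (adjusted p 0.265). The summed endothelial markers ranged from 149 to 171 CPM in aDR and from 145 to 181 CPM in AL mice. All 11 interferon response genes tested were below 0 (median -0.21), yet 0 had an unadjusted p under 0.05, and Ifitm3 was at -0.28 (adjusted p 0.663). In the myelin list (11 tested, median -0.077), the galactolipid enzyme gene Ugt8a was at 19.4 ± 2.47 against 26.9 ± 2.90 CPM (SD, n = 5 and 4; -0.48, adjusted p 0.0729) with no overlap, and Opalin was at -0.32 (adjusted p 0.473). Medians were -0.085 for 14 complement, MHC class I and microglia genes, 0.012 for 18 cholesterol synthesis genes, -0.036 for 8 thyroid hormone genes and -0.069 for 9 mitochondrially encoded genes. In these, C4b, the complement component, was at 0.47 (adjusted p 0.415), Lss, which closes the sterol rings, at 0.28 (adjusted p 0.269) and the thyroid hormone receptor gene Thra at 0.15 (adjusted p 0.449).

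The restricted mice were not alike in the 23 genes that rose. Mouse 67 was the highest of the 5 in 9 genes (Ppp1r3g, Fkbp5, Pcsk4, Tsc22d3, Plin4, Etnppl, Fmo2, Rin2 and Smim3). The same mouse was the lowest of the 5 in 8 others (Ciart, Dbp, Cirbp, Rbm3, Ano2, Mir9-3hg, Tef and Kirrel2). Mouse 61 was highest in 6, among them Ciart, Cirbp and Rbm3. Thus the mouse with the highest Fkbp5 and Tsc22d3 had the lowest Ciart, Dbp, Cirbp and Rbm3 of its group. Such an order within 5 mice is a description and was not tested. Of the 27 calls, 14 were kept in each of 14 other analyses, among them the omission of each mouse in turn: Hrh3, Ppp1r3g, Ciart, Dbp, Cirbp, Klhl40, Fkbp5, Pcsk4, Rbm3, Ano2, Tsc22d3, Mir9-3hg, Arid5a and Cry1. The other 13 lost the call in at least 1 analysis, and none changed sign. Tef, Chordc1, Klf15, Fmo2, Rin2, Tsga10, Smim3 and Kirrel2 kept the call in only 2 of the 9 fits that each left out a mouse. Epha8 and Cbln2 kept the call in 3 of these fits, Serinc2 in 4, and Plin4 and Etnppl in 8. The number of calls was 16 without aDR mouse 61, 16 without AL mouse 68 and 18 without aDR mouse 62 or 64, and it was 36 without aDR mouse 67. The 4 genes that fell were not called without AL mouse 68, aDR mouse 61 or aDR mouse 64. Plin4 lost its call without AL mouse 69. With all mice kept, it also lost the call under limma-voom and under edgeR with robust dispersion (adjusted p 0.131 in the robust fit). Etnppl lost its call without aDR mouse 61 and under edgeR with robust dispersion (adjusted p 0.252 in the robust fit).

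The threshold cuts through a continuum. The called genes with the largest p were Tsga10, Tef, Chordc1, Smim3, Klf15 and Kirrel2, all at an adjusted p of 0.0453. Just outside lay Dpysl4, at 42.2 ± 2.17 against 33.1 ± 0.848 CPM (SD, n = 5 and 4; 0.35, adjusted p 0.0565), then Usp2 and Mthfd1l, a mitochondrial folate enzyme gene (0.54, adjusted p 0.0565). On counts simulated from these libraries, 76 of 99 genes changed 1.5-fold (76.8%) and 94 of 99 changed 2-fold (94.9%) were called, and 13 genes simulated without a change were called too. The simulated run held more changed genes than were called in the data. That loosens the threshold on p after adjustment, so recovery in the real test may be lower. Changes under 1.5-fold, the size of some of the rises here, were not simulated.

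The next question was whether visual cortex differs from the other neocortical and allocortical regions of the same mice in its response. Values are given for the genes called in visual cortex, where that choice itself favours large changes. The other regions and liver come from the same mice, so the same sign there is no independent replication. For these and the plasma comparison, the share of same-sign genes over all genes tested is not given here. In motor cortex 33 of 13128 genes were called (0.251%). There, 26 of the 27 genes were tested, all 26 had a log2 change of the same sign as in visual cortex, and 13 were called: Hrh3, Ciart, Dbp, Cirbp, Klhl40, Fkbp5, Pcsk4, Rbm3, Tsc22d3, Mir9-3hg, Plin4, Etnppl and Fmo2. In entorhinal cortex, the gateway to the hippocampus with 5 aDR and 3 AL mice, 0 of 14160 genes were called (0%) and 593 had an unadjusted p under 0.05. There, 26 of the 27 were tested, all 26 had the sign of visual cortex, and 15 had an unadjusted p under 0.05. Etnppl, for example, was at 1.15 in visual, 1.15 in motor (SE 0.17) and 1.36 in entorhinal cortex (SE 0.30), and Cirbp at 0.65, 0.58 (SE 0.078) and 0.63 (SE 0.10).

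The difference of the diet effects was then tested over both regions at once. Between visual and motor cortex 0 of 13507 genes were called (0%), with 554 at an unadjusted p under 0.05 and 0 calls by DESeq2. Between visual and entorhinal cortex 0 of 14197 were called (0%), with 286 at an unadjusted p under 0.05 and 0 calls by DESeq2. On simulated counts these tests found 82.8% and 67.0% of 2-fold differences, so smaller ones were often out of reach. Those runs held many changed genes, which loosens the threshold on p after adjustment. With 0 calls in the data, real recovery may be lower. The genes called in visual cortex whose difference had an unadjusted p under 0.05 were Hrh3, Ppp1r3g, Arid5a, Serinc2 and Rin2 against motor cortex, and Ppp1r3g, Ciart, Dbp, Ano2, Arid5a and Tef against entorhinal cortex, each at an adjusted p of 1. These fits had no term for the mouse. With that term, the smallest edgeR adjusted p against motor cortex over all genes was 0.149.

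Ppp1r3g had the smallest p of the difference from entorhinal cortex over all genes. Its log2 change was 0.75 in visual, 0.27 in motor and 0.019 in entorhinal cortex, the difference being 0.48 (SE 0.15, unadjusted p 0.00354) from motor and 0.76 (SE 0.17, unadjusted p 2.73e-04) from entorhinal cortex. In motor cortex it was at 14.7 ± 2.82 CPM against 12.1 ± 0.539 CPM (mean ± SD of 5 aDR and 4 AL mice), and in entorhinal cortex at 11 ± 0.861 CPM against 10.3 ± 3.06 CPM (mean ± SD of 5 aDR and 3 AL mice). Arid5a was at 0.62 in visual, 0.18 in motor and 0.070 in entorhinal cortex. Ano2 and Serinc2 had very unequal levels between regions. Ano2 averaged 3.49 against 0.821 CPM in visual cortex and 0.59 against 0.143 CPM in motor cortex, where no library passed 0.981 CPM. In entorhinal cortex Ano2 was at 28.2 ± 7.36 CPM against 25.2 ± 6.63 CPM (mean ± SD of 5 and 3 mice). The difference of the Ano2 diet effect from motor cortex was 0.27 (SE 1.1, unadjusted p 0.811). Serinc2 averaged 4.29 against 9.35 CPM in visual, 9.58 against 12.6 CPM in motor and 0.842 against 0.896 CPM in entorhinal cortex. Of the 16 marker lists, the hippocampal one had the smallest p between the diets (values above), and its part in the changes of Ano2 and Serinc2 was not tested.

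**Figure D4:**
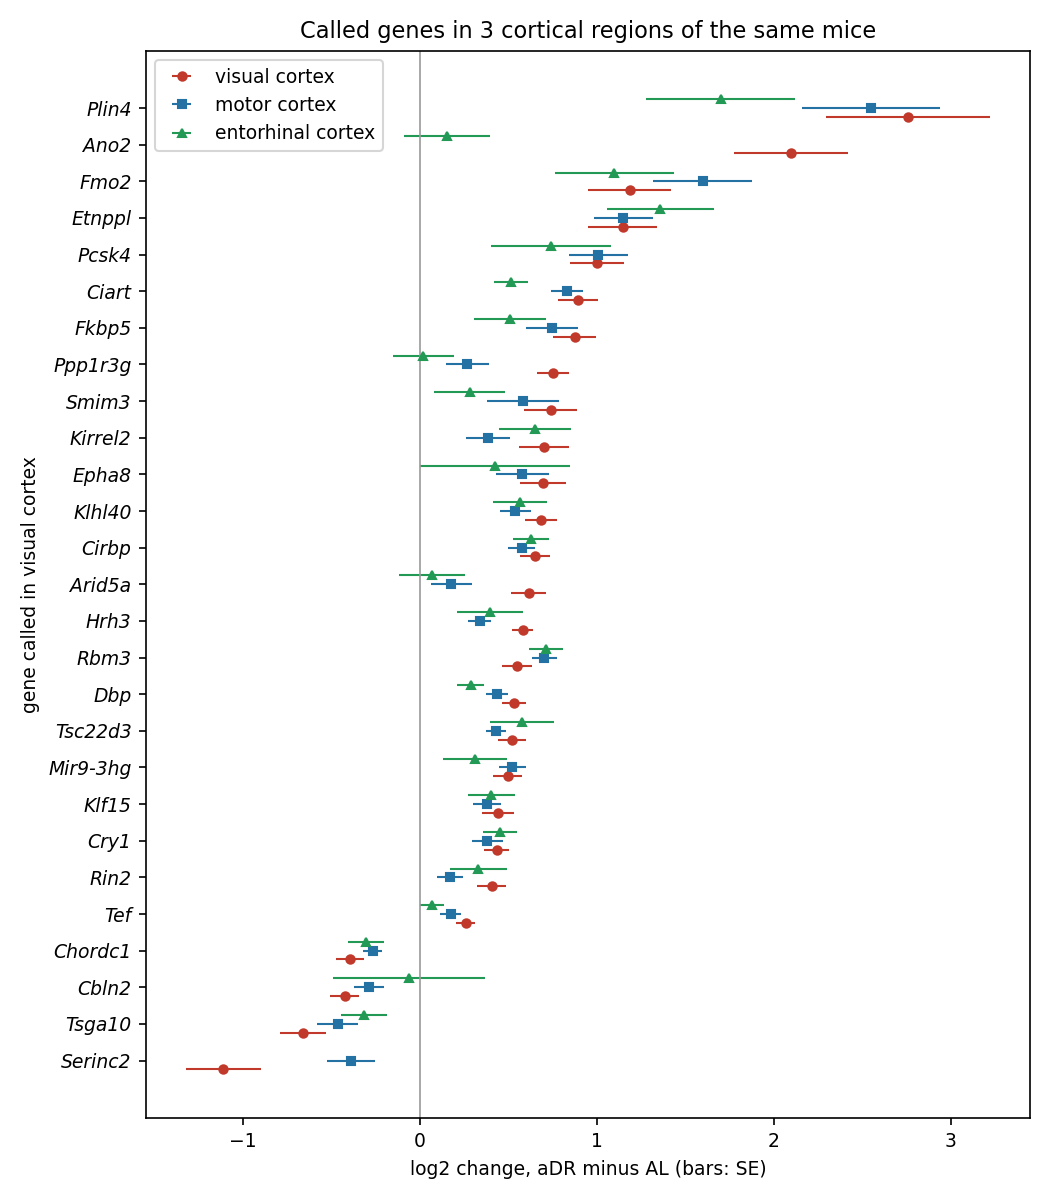
Log2 change (aDR minus AL, bars give the SE) of the 27 genes called in visual cortex, in visual (red circles), motor (blue squares) and entorhinal cortex (green triangles) of the same mice. All points of a gene lie on the same side of 0, and the visual point lies apart from the others for genes such as Ppp1r3g, Arid5a, Ano2 and Serinc2; Ano2 has no motor point and Serinc2 no entorhinal point.

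Over the 14 other brain regions, 16 of the 27 genes had the sign of visual cortex in every region: Ciart, Dbp, Cirbp, Fkbp5, Rbm3, Tsc22d3, Mir9-3hg, Plin4, Cry1, Etnppl, Fmo2, Tsga10, Tef, Chordc1, Smim3 and Klf15. The other 11 had the opposite sign in at least 1 region. Among the steady genes the size still varied. Plin4 ran from 1.02 in cerebellum to 2.93 in caudate putamen, Ciart from 0.31 in medulla to 1.23 in caudate putamen, and Rbm3 from 0.40 in olfactory bulb to 0.92 in pons. Rbm3 in visual cortex ranked 12 of 15 regions and Fmo2 ranked 13, whereas 8 genes had their largest change in visual cortex (Ppp1r3g, Dbp, Ano2, Arid5a, Epha8, Serinc2, Tsga10 and Smim3). Of these 8, Ano2 had a value in only 9 and Serinc2 in 12 of the 14 other regions, and Ano2 had none in motor cortex. Those ranks were not tested. Hrh3 was at 0.75 in olfactory bulb and at -0.25 in posterior hippocampus, Serinc2 at 0.94 in hypothalamus, and Cbln2 at 0.69 in corpus callosum.

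**Figure D5:**
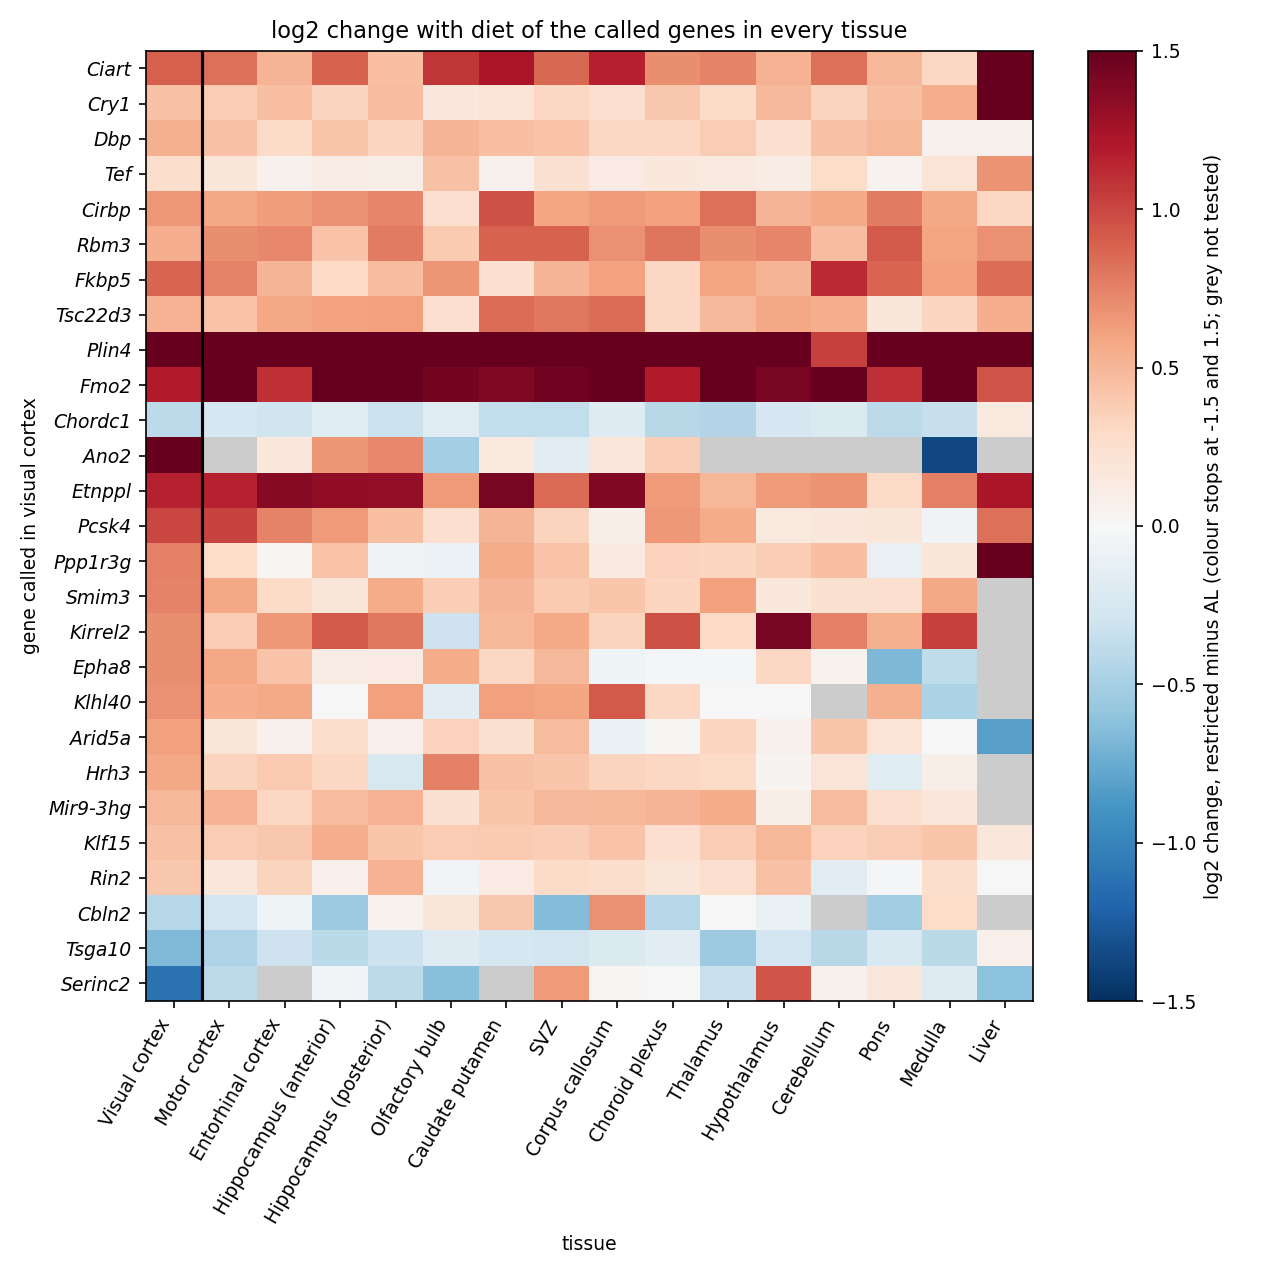
Log2 change with diet of the 27 genes called in visual cortex (rows) in visual cortex (left of the line), 14 other brain regions and liver (columns); red is higher and blue lower in restricted mice, and grey is not tested. Rows such as Ciart, Plin4, Fmo2 and Rbm3 are red in all 15 brain regions, while Hrh3, Epha8, Arid5a, Cbln2 and Serinc2 change sign between regions.

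In liver, where 26 of 11815 genes were called (0.220%), 19 of the 27 were tested, 15 had the same sign and 4 were called, all higher: Ciart, Plin4, Cry1 and Fmo2. Cry1 was at 1.93 in liver (SE 0.21) against 0.43 in visual cortex, and Ciart at 1.97 (SE 0.19) against 0.90. Dbp was at 0.069 in liver (SE 0.14) against 0.53 in visual cortex, and Arid5a at -0.81 (SE 0.31) against 0.62. The difference between liver and visual cortex was not tested.

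Visual cortex of the plasma experiment showed how the same genes stood under another treatment in other mice. Of 13551 genes tested between YMP and PBS males, 0 were called (0%) by edgeR and 0 by DESeq2, and 377 had an unadjusted p under 0.05. Of the 27 genes called for diet, 26 were tested, 12 had the same sign, and 2 had an unadjusted p under 0.05. These were Ppp1r3g, with a mean ± SD of 23.3 ± 3.69 CPM over 3 YMP mice and 15.4 ± 0.962 CPM over 3 PBS mice (log2 change 0.58, SE 0.14, adjusted p 0.999), and Tsc22d3 at 0.28 (SE 0.11, adjusted p 0.999). Ciart was at 0.16 (SE 0.17), Cirbp at -0.18 (SE 0.12), Rbm3 at -0.051 (SE 0.13) and Plin4 at -0.043 (SE 0.41). On simulated counts this comparison found 54.1% of 1.5-fold and 85.7% of 2-fold changes. That run too held many changed genes, so recovery in the real test, with 0 calls, may be lower. Sex and treatment differ together between the experiments, so the diet and plasma changes are set side by side without a test.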

How the data were processed

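RNA was isolated from homogenised tissue on RNeasy columns, turned into cDNA with Smart-Seq2 and sequenced as unstranded Nextera XT libraries, per the labels. The deposited values are whole-number read counts per gene made by the authors, 21076 rows and 238 libraries. Trim Galore 0.3.7, STAR 2.5.3a, DESeq2 and build GRCm38 are named in the submitters' processing notes; the counting program and annotation are not given in the sources used here. There were 537 rows without a count.

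Groups follow the labels, which give tissue, treatment and mouse number. Each comparison was fitted on the deposited counts with edgeR 4.0.16 (R 4.3.3): the filterByExpr filter (counts of at least 10, total of at least 15), TMM normalisation, quasi-likelihood F test and Benjamini-Hochberg adjustment over all genes tested. The visual cortex fit held only its 9 diet libraries, without covariates. Differences of diet effects are region by diet terms over both regions. CPM were computed here from TMM-scaled totals of the tested genes. Ranges of 1.81 to 13.2 M counts limit the precision of rare genes, and PCR reads without molecular identifiers are not independent molecules. Within a region each library comes from another mouse, so p-values measure the spread between mice. The region by diet fits hold 2 libraries of most mice, and the mouse is a term only in the blocked alternative.

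The called genes and the 3 members of each list with the smallest p were named. The members and the 19 lists were chosen with earlier results of these data known. Marker lists, summed in CPM, were compared by an exact permutation test over 126 splits of the 9 mice. The mouse number pairs regions of an animal. Deviations from group means correlated at 0.065 on average between visual and motor cortex of the same mouse (-0.0083 for different mice) and at 0.035 with entorhinal cortex (-0.0039). Replicate pairs differed by more than sampling noise (22 pairs, lowest chi-square per degree of freedom 1.55). Positions and promoter windows are RefSeq GRCm38.p6, and exon overlaps are from GENCODE. The fits were tested on simulated counts. DESeq2 1.42.0, limma-voom 3.58.1, other size factors, no filter, robust dispersion, leaving out mice and a mouse block were alternatives.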

Additional observations from a re-analysis of the deposited data

Results flagged for a closer look

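In the called genes, the summed cell type markers and the library totals, 88 sets of libraries of the same diet were examined, and 3 held a library far from the others of its group, where chance gives about 4.4. Plin4 was at 11.5 CPM in aDR mouse 67, while the other restricted mice lay between 2.79 and 5.06 CPM. Tsc22d3 was at 155 CPM in AL mouse 68, while the other freely fed mice were all at 142 CPM. Mir9-3hg was at 45.4 CPM in AL mouse 69, against 39.8 to 40.5 CPM in the other freely fed mice. The Tsc22d3 and Mir9-3hg values lie toward the restricted mice, and both genes were called also without that mouse.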

How the results depend on the processing

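The 27 calls became 27 with DESeq2's size factors in edgeR, 23 with limma-voom, 32 with robust dispersion, 47 with DESeq2 and 59 without the filter on low counts. All 27 were among the 47 and among the 59. The 32 added without the filter had all passed it in the original fit, and the cause was not tested. Leaving out each mouse in turn gave 16 to 36 calls, 16 without aDR mouse 61 or AL mouse 68, with fewer samples in each fit. Of 266 medians of gene lists over all alternatives, 5 moved by more than the spread between replicates, and no called gene changed sign.

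No paired analysis was possible because of the design within visual cortex, where no mouse is in both diets. With the mouse as a replicate block, the difference between visual and motor cortex had 0 called genes (692 at an unadjusted p under 0.05). Its smallest adjusted p was 0.149. The difference from entorhinal cortex had 0 called genes (277), so the pairing changed no call. Leaving out mice also left both differences and the plasma comparison at 0. Depth limits Plin4, with 24 counts over the AL libraries, and Ano2, with 22.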

Other observations

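DESeq2 called 20 genes beyond the 27, and 19 of these were also called by edgeR without the filter. They were chosen for mention after their values were seen. Usp2, the 1 member of a clock list among them, was higher (DESeq2 log2 change 0.30, adjusted p 0.00964). Gjb6 (0.35, adjusted p 0.0459) and Sult1a1 (0.83, adjusted p 0.0459) are in the glucocorticoid target list. Hsph1, of the cytosolic chaperone list, was lower (-0.27, adjusted p 0.0174). Mfsd2a, of the VEGF, angiopoietin and endothelial list, was higher (0.66, adjusted p 0.0406). Wfs1, of the hippocampal marker list, was higher (0.42, adjusted p 0.0252).

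The genes given next are in none of the lists. Net1, an activator of the small GTPase RhoA, was at 63.8 ± 10.5 against 44.1 ± 7.51 CPM (mean ± SD of 5 aDR and 4 AL mice; DESeq2 adjusted p 0.00858, edgeR adjusted p 0.0729). Gem, a small GTPase that restrains calcium channels, was at 11.2 ± 2.15 against 5.25 ± 1.81 CPM (SD, n = 5 and 4; DESeq2 adjusted p 0.0103). Sema3e, a guidance molecule, was lower, at 14.3 ± 3.82 against 23.9 ± 4.69 CPM (SD, n = 5 and 4; DESeq2 adjusted p 0.0117). Itpka, an inositol phosphate kinase of dendritic spines, was at 296 ± 35.2 against 234 ± 16.1 CPM (SD, n = 5 and 4), with overlapping ranges (DESeq2 adjusted p 0.0252). Cebpb, a transcription factor of metabolic and inflammatory genes, was at 34.8 ± 5.38 against 25.1 ± 1.35 CPM (SD, n = 5 and 4; DESeq2 adjusted p 0.0406). In the edgeR fit with the filter, none of the 20 was called.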
